A study of Mus musculus with 36 samples.

Results

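The genes of the mitochondrial respiratory chain were followed through the striatum of 4 inbred mouse strains given saline or morphine. Members were the probe sets with a single gene symbol for a subunit of complexes I to V, by the symbol patterns of their families, whose intensity exceeded a detection minimum of 6.6 on the log2 scale on at least 9 of the 36 arrays. Of 180 probe sets with such a symbol (91 genes), 163 probe sets of 88 genes met this minimum, out of 27212 probe sets that met it on the whole array. The patterns also take in complex I assembly factors (Ndufaf genes), which are not part of the finished enzyme and were counted apart. The remaining 17 probe sets stayed below the minimum, 16 of them on every array, and they left Cox6b2, Cox7b2 and Cox8b with no detected probe set. At the threshold, Ndufa3 1430149_at exceeded the minimum on 9 arrays with a mean of 6.5, and Uqcrq 1437134_at on 7 arrays with a mean of 6.29. A further 10 probe sets carried several symbols, such as Ndufs5 together with its pseudogene, and were left out.

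All mice were males of 8 to 10 weeks of 4 inbred strains (SWR/J, DBA/2J, C57BL/6J and 129P3/J), and all were injected subcutaneously 3 times a day on 4 days and once on day 5. Saline mice received saline throughout. Acute morphine mice received saline until day 5 and then a single dose of 20 mg/kg, and chronic morphine mice received 10, 20, 40 and 40 mg/kg per injection on days 1 to 4 and 40 mg/kg on day 5. Tissue was taken 4 h after the last injection, and each of the 12 groups was measured on 3 Affymetrix mouse genome arrays, each holding RNA pooled from 3 animals. The dissected piece held the rostral caudate putamen with the nucleus accumbens, so its RNA came from a mixture of cells. In such tissue, fewer cells of a type and less RNA per cell cannot be told apart. No arm had a deletion or transgene.

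The respiratory chain passes electrons from NADH (complex I) and succinate (complex II) through complexes III and IV to oxygen and pumps protons as it does so. Complex V, the ATP synthase, lets the protons return and makes ATP. All but a few core subunits are encoded in the nucleus, and neurons depend on the chain for most of the ATP that restores ion gradients after firing. Several subunits of complex IV, and Ndufa4 beside them, have alternative forms that replace each other by tissue.

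Transcription of these genes is often linked to nuclear respiratory factor 1 (NRF1), to ETS family factors such as GABPA, and to YY1. RefSeq (GRCm38.p6) gave a window of 250 bases before and 50 bases after the start for 71 of the 88 genes. The letters CGCATGCG, the NRF1 core, stood on either strand in the windows of 10 of 71 genes (14.1%) and of 2.07% of all 27025 genes. AAGATGGCG, a YY1 site, stood in 7 (9.86%) against 1.64%, and CCGGAAGT, an ETS site, in 5 (7.04%) against 4.31%. In all 20 genes held at least 1 of these, and 2 held more than 1. The 5 stretches below, each 30 bases on the strand of the gene and upstream of its start, show matches of each motif as examples, among them those of Ndufaf4 and Atp5g2, whose treatment values are described further on, while the matches of the other genes, such as Ndufaf5 and Ndufs4, are not printed. Capitals mark the matched letters.
Ndufaf4 (chr4:24897960-24897989, + strand): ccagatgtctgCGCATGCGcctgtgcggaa
Atp5g2 (chr15:102671070-102671099, - strand): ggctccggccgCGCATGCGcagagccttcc
Cox6a1 (chr5:115349101-115349130, - strand): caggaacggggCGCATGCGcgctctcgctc
Uqcr11 (chr10:80406869-80406898, - strand): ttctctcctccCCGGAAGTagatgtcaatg
Atp5j (chr16:84835045-84835074, - strand): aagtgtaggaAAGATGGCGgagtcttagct
Such a match describes the letters of the window and was not tested as a site. The 36 probe sets of genes with a match had a median difference after chronic morphine of -0.05 on the log2 scale, and the 100 probe sets of genes without one had -0.06. After acute morphine these medians were -0.03 and 0.00.

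The chain was measured on every array: 149 of the 163 probe sets exceeded the minimum on all 36 arrays. Mean log2 intensities ran from 6.5 (Ndufa3 1430149_at) to 12.23 (Cox4i1 1448322_a_at), on a scale where probe sets cannot be ranked against each other. Means ran from 9.93 to 11.25 for the complex I core, from 6.71 to 10.37 for its assembly factors, from 6.76 to 10.99 for complex II, from 7.49 to 12.12 for complex III and from 6.73 to 12.03 for complex V. Counted by role, 16 probe sets were of complex I core subunits, 55 of its accessory subunits, 10 of its assembly factors, 8 of complex II, 16 of complex III, 28 of complex IV and 30 of complex V. Roles followed the symbols, so Ndufa4 and Ndufa4l2 were counted among the accessory subunits of complex I, and Cox7a2l in complex IV. In 48 genes several probe sets were measured, so agreement within a gene could be read. Replicate numbers did not mark a stated batch, but arrays of 1 treatment and number deviated together across strains, and the counts of members called in the comparisons of treatments over all strains are given with and without a block for this.

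Strain separated 18 of the 163 probe sets (15 genes), and the largest difference was a low signal of 1 Uqcr10 probe set in SWR/J. The test was limma's moderated F-test with Benjamini-Hochberg adjustment over all detected probe sets at 1%, and 13.2% of all detected probe sets passed it against 11.04% of the members. None of the 16 complex I core probe sets passed. The count was 5 of 55 for accessory subunits, 3 of 10 for assembly factors, 3 of 8 for complex II, 1 of 16 for complex III, 3 of 28 for complex IV and 3 of 30 for complex V. With arrays of 1 treatment and number as a random block, 25 members passed beside 17.9% of all. In 3 of the 18, one strain lay outside the range of the other 3 on all its 9 arrays, and in 11 of the 18 the strain of lowest mean was SWR/J. These counts describe the 18 only, and the matching shares among all detected probe sets were not computed.

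**Figure D1:**
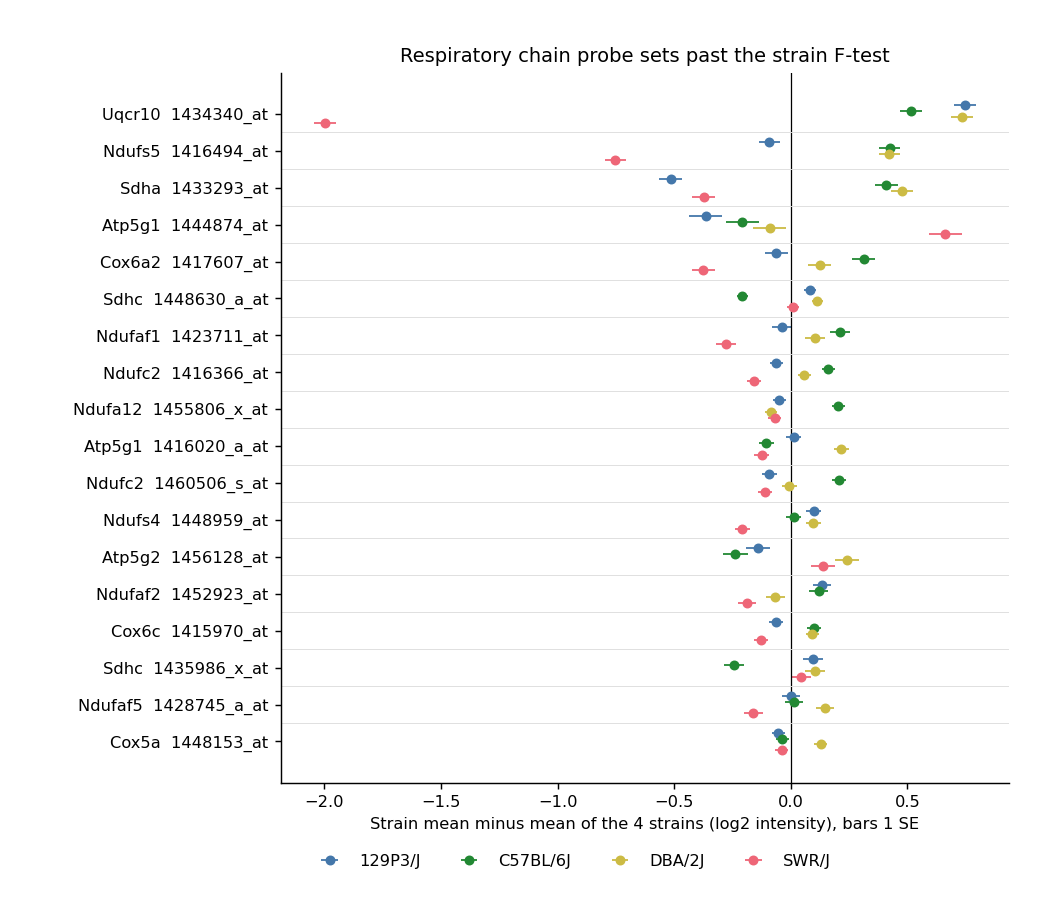
Each row is 1 of the 18 probe sets past the strain test, with the mean of each strain (9 arrays) minus the mean of the 4 strains on the x axis in log2 intensity and bars of 1 SE. SWR/J stands apart for Uqcr10 1434340_at, where all its arrays are below the detection minimum and the measured deviation of -2.00 is no exact size, and most of the other deviations lie within 0.5 of 0.

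Uqcr10 encodes a small subunit of complex III, the cytochrome bc1 complex. On probe set 1434340_at the 9 SWR/J arrays ran from 5.17 to 5.82 with a median of 5.51 in log2 intensity. The lowest value among the other strains was 7.80, and the medians were 8.28 in 129P3/J, 8.00 in C57BL/6J and 8.25 in DBA/2J. SWR/J was thus below the detection minimum on 9 of 9 arrays, and no other array was. Against that minimum, the level was at least 3.03-fold higher in 129P3/J, 2.58-fold higher in C57BL/6J and 3.01-fold higher in DBA/2J (adjusted p of the F-test 2.7e-22). Both other Uqcr10 probe sets gave overlapping ranges in all 4 strains. On 1424364_a_at the SWR/J arrays ran from 10.51 to 10.77 and the C57BL/6J arrays from 10.48 to 10.86, with an SWR/J deviation of -0.05 (SE 0.04), and on 1434341_x_at the deviation was -0.05 (SE 0.04). The low SWR/J signal was therefore seen on 1 of 3 probe sets of the gene. Whether the bases under those probes differ in SWR/J was not tested.

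**Figure D2:**
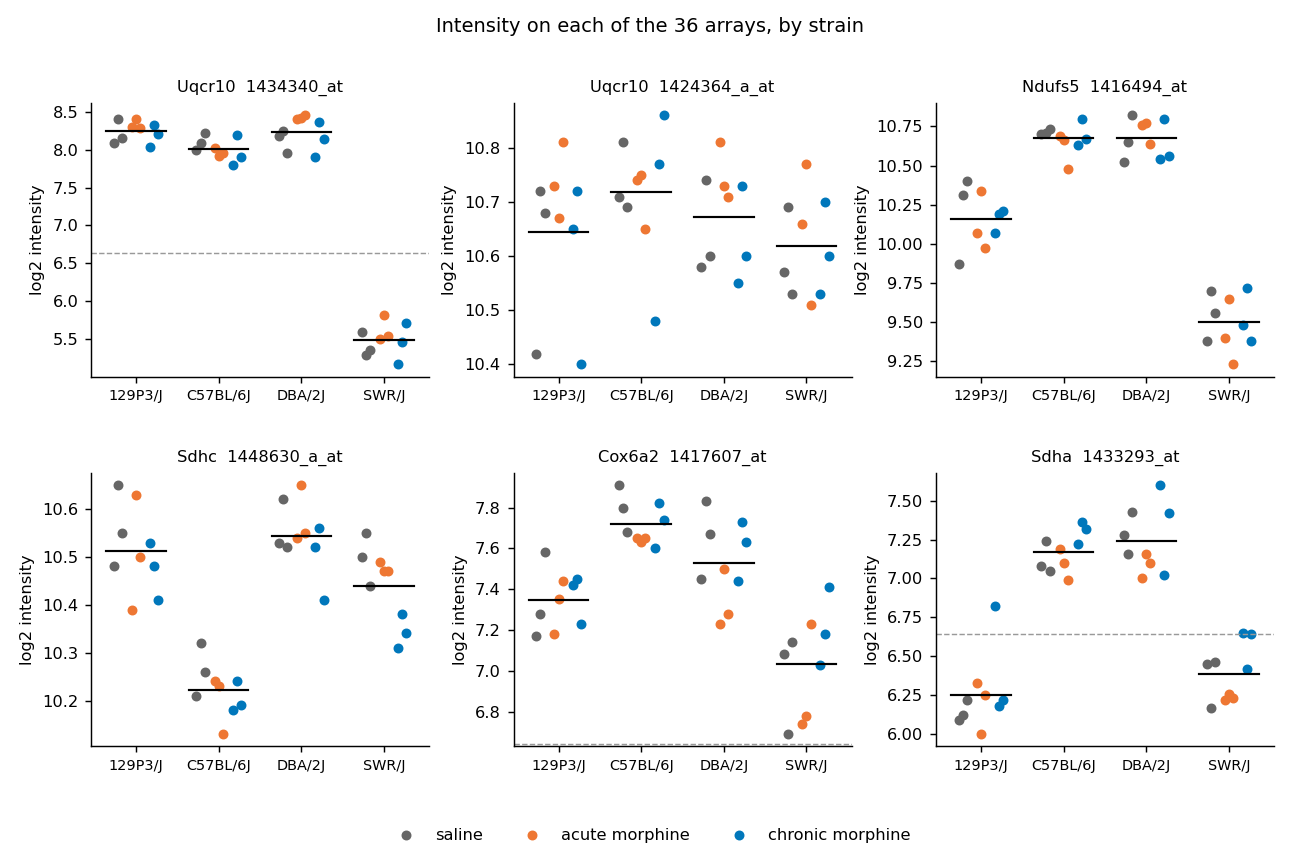
Log2 intensity on each of the 36 arrays is plotted by strain for 6 probe sets, with points coloured by treatment, a line at each strain's mean of 9 arrays, and a dashed line at the detection minimum where it falls in the panel. SWR/J lies below every other array for Uqcr10 1434340_at and Ndufs5, while the second Uqcr10 probe set shows the 4 strains at overlapping levels.

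The strain calls of complex I were of accessory subunits and assembly factors. The accessory share, 9.091%, was below the 13.18% of all detected probe sets, and the share of the 10 assembly factor probe sets was 30%. Ndufs5, an accessory subunit of the membrane arm, was lowest in SWR/J, where 1416494_at ran from 9.23 to 9.72 with a median of 9.48. It ran from 9.87 to 10.40 in 129P3/J, from 10.48 to 10.81 in C57BL/6J and from 10.52 to 10.82 in DBA/2J. Of the 6 pairs of strains only C57BL/6J and DBA/2J overlapped, and the strain means spanned 2.26-fold (adjusted p = 1.3e-13). This was the only single-symbol probe set of Ndufs5, and a pseudogene with near-identical sequence exists, so its signal is uncertain as to source.

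Ndufc2, another accessory subunit, was higher in C57BL/6J on 2 of its 3 probe sets, by 0.16 (SE 0.03) on 1416366_at and 0.21 (SE 0.03) on 1460506_s_at against the mean of the 4 strains. On 1416366_at the C57BL/6J arrays ran from 10.94 to 11.19 and the SWR/J arrays, which did not overlap them, from 10.53 to 10.88. The third, 1455036_s_at, deviated the same way by 0.09 (SE 0.04) and did not pass (adjusted p of the F-test 0.15). Ndufa12 behaved otherwise: 1455806_x_at was higher in C57BL/6J by 0.20 (SE 0.03), with all 9 of its arrays above the other 27, whereas 1418814_s_at deviated by -0.10 (SE 0.03) and 1433513_x_at by -0.05 (SE 0.03). The probe sets of Ndufa12 thus opposed each other in C57BL/6J. Ndufs4, a subunit whose loss gives a mouse model of Leigh syndrome, was lower in SWR/J on 1448959_at by 0.21 on the log2 scale (-0.21, SE 0.03), while its other probe sets deviated by -0.03 (1418117_at) and 0.03 (1438166_x_at).

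Among the assembly factors, Ndufaf1, which helps to build the membrane arm, was lower in SWR/J, where 1423711_at ran from 7.77 to 8.30 with a median of 8.14. In C57BL/6J it ran from 8.43 to 8.75, above all SWR/J arrays, and the deviations from the mean were -0.28 (SE 0.04) in SWR/J and 0.21 (SE 0.04) in C57BL/6J. Ndufaf2 1452923_at was also lowest in SWR/J, at -0.19 (SE 0.04), and 0.13 (SE 0.04) above the mean in 129P3/J. Ndufaf5 1428745_a_at was -0.16 (SE 0.04) in SWR/J and 0.15 (SE 0.04) in DBA/2J. For both, the arrays of every pair of strains overlapped.

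Complex II, which links the citrate cycle to the chain, differed between strains on 3 of its 8 probe sets (37.5%, against 13.18% of all detected). Sdhc, a membrane anchor, was lower in C57BL/6J on both of its probe sets. On 1448630_a_at the C57BL/6J arrays ran from 10.13 to 10.33 and the DBA/2J arrays from 10.41 to 10.65, with a deviation of -0.21 (SE 0.02) in C57BL/6J (adjusted p of the F-test 9.0e-07). On 1435986_x_at the deviation was -0.24 (SE 0.04), and its lowest value, 8.86, came from C57BL/6J saline replicate 1. Leaving out that array did not change the number of members past the strain test, and the named strain values kept their direction. Sdha, the flavoprotein subunit, passed on 1433293_at only, with 129P3/J at -0.51 and SWR/J at -0.37 and C57BL/6J at 0.41 and DBA/2J at 0.48 (SE 0.05 each). That probe set was dim, above the minimum on 1 of 9 arrays in each of 129P3/J and SWR/J and on 9 of 9 in the others. The bright probe sets of Sdha, 1426688_at and 1426689_s_at, deviated by at most 0.04 in any strain.

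In complex IV, cytochrome c oxidase, the strain differences were of a tissue-specific form and of 2 common subunits. They made up 10.71% of its probe sets, against 13.18% of all detected. Cox6a2, the form of subunit VIa best known from heart and skeletal muscle, was highest in C57BL/6J, where 1417607_at ran from 7.60 to 7.91 with a median of 7.68. It was lowest in SWR/J, from 6.69 to 7.41 with a median of 7.08, and those ranges did not overlap. The deviations were 0.31 (SE 0.05) and -0.38 (SE 0.05). Its common counterpart Cox6a1 deviated by at most 0.03 in any strain on both probe sets (adjusted p of the F-test 0.94 and 0.92). Of the 6 striatal interneuron markers 1 passed the strain test, Sst, at -0.13 (SE 0.04) in SWR/J and -0.04 in C57BL/6J. Slc5a7 was at 0.23 (SE 0.11) in C57BL/6J and -0.06 in SWR/J, and Pvalb at -0.01 and 0.08. In the same order Npy was at -0.15 and 0.01, Chat at -0.06 and 0.04, and Kcnc1 at 0.05 and 0.05. The list summed to 3809 to 5264 on C57BL/6J and 3990 to 5064 on SWR/J arrays. Their part in the result was not tested.

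Cox6c 1415970_at was lowest in SWR/J at -0.13 (SE 0.03), and its second probe set, 1434491_a_at, deviated by -0.09 (SE 0.04) there without passing (adjusted p = 0.042). Cox5a 1448153_at was highest in DBA/2J at 0.13 (SE 0.03). The other Cox5a probe sets gave 0.12 and 0.13 in DBA/2J with adjusted p of 0.092 and 0.090 for strain, short of the threshold. The other alternative forms did not pass: Cox4i2, known from lung and vessel-associated cells, had an adjusted p of 0.49, Cox7a1, the muscle form, 0.93, and Ndufa4l2, a relative of Ndufa4 known from vessel-associated cells, 0.88.

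In complex V 3 of 30 probe sets passed for strain (10%, against 13.18% of all detected). They were of Atp5g1 and Atp5g2, genes of its proton-carrying c ring, while Atp5g3 of the same ring did not pass. Atp5g1 1416020_a_at was highest in DBA/2J, with arrays from 10.51 to 10.75 against 10.19 to 10.50 in SWR/J, at a deviation of 0.22 (SE 0.03). A dim second probe set, 1444874_at, was highest in SWR/J at 0.66 (SE 0.07), where it exceeded the minimum on 9 of 9 arrays against 2 of 9 in 129P3/J. For SWR/J the probe sets of Atp5g1 thus gave opposite signs, the bright one deviating by -0.12 (SE 0.03). Atp5g2 1456128_at, also dim, was 0.24 (SE 0.05) above the mean in DBA/2J and -0.24 (SE 0.05) in C57BL/6J, while the bright probe set of the gene, 1415980_at, did not pass (adjusted p = 0.46). None of the catalytic subunits Atp5a1 and Atp5b passed.

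Set against the mean of the 4 strains one at a time at 5%, the members leaned to lower values in SWR/J. There 17 of 163 were lower and 3 higher, where the shares among all detected probe sets were 4.81% and 4.89%. DBA/2J had 12 higher and 0 lower (3.54% and 5% of all, and 13 and 4 with the random block). C57BL/6J had 12 higher and 7 lower (6.54% and 4.69% of all), and 129P3/J had 4 and 4 (4.6% and 4.62% of all). The median deviation of the members in SWR/J was -0.03 with 122 of 163 below 0, against a median of 0.00 and 50.1% of all, and all 16 complex I core probe sets lay below 0 there. Beyond 1.2-fold there were 6 of 163 members in SWR/J (3.681%, against 4.425% of all), 4 in C57BL/6J (2.454%, against 4.605%), 3 in DBA/2J (1.84%, against 4.189%) and 3 in 129P3/J (1.84%, against 4.351%). Since the 4 deviations of a probe set sum to 0, a lower SWR/J raises the others, and these counts are not independent.

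Morphine moved few members in this fit, and more passed when arrays were weighted. By the F-test for treatment 5 of 163 passed at 1% (Ndufab1 1435934_at, Ndufaf4 1427997_at, Sdha 1426689_s_at, Atp5g2 1456128_at and Ndufa10 1448934_at), against 8.71% of all detected probe sets. With the random block for treatment and number, 0 passed, and 0.478% of all did (limma). Leaving out 1 array at a time gave 3 to 11 members, with 11 when C57BL/6J chronic replicate 2 was left out, 8 when DBA/2J chronic replicate 2 was, and 3 without 129P3/J acute replicate 3 or without chronic replicate 3 of C57BL/6J, DBA/2J or SWR/J. Acute morphine against saline gave 1 member higher and 3 lower at 5%, where 2.59% and 2.11% of all passed, and with the random block 0 and 0 (0.533% and 0.143% of all). The treatment comparisons share their saline or acute arrays and are not independent of each other.

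Ndufab1 encodes the mitochondrial acyl carrier protein, which is also an accessory subunit of complex I. Its dim probe set 1435934_at ran from 6.03 to 7.43 with a median of 6.75 in the 12 saline arrays and from 6.95 to 7.66 with a median of 7.19 after acute morphine. These ranges overlapped over all strains, but within 129P3/J, DBA/2J and SWR/J every acute array was above every saline array. The rise was 0.57 on the log2 scale (SE 0.12, 1.49-fold, limma adjusted p = 0.0065), and with the random block adjusted p = 0.072. After chronic morphine the 12 arrays ran from 5.81 to 7.10, with a difference from saline of -0.14 (SE 0.12). The bright probe set of the gene, 1428159_s_at, differed by -0.02 (SE 0.04) after acute morphine, so the rise was seen on 1 of 3 probe sets. Saline replicate 2 was the highest saline array in 3 of 4 strains, with a mean of 6.98 against 6.68 and 6.38 for replicates 1 and 3, and the acute mean was 7.25.

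Ndufaf4, an assembly factor of complex I whose upstream stretch is printed above, fell after acute morphine. The 12 saline arrays of 1427997_at ran from 8.90 to 9.81 with a median of 9.12, and the 12 acute arrays from 8.67 to 9.07 with a median of 8.88. Acute means were below saline means in 4 of 4 strains, at -0.38 (SE 0.11, 1.30-fold lower, adjusted p = 0.037), and with the random block adjusted p = 0.19. Saline replicate 2 was the lowest saline array in 4 of 4 strains, with a mean of 8.96 over strains against 9.26 and 9.59 for replicates 1 and 3, and the acute mean was 8.88. The second Ndufaf4 probe set, 1435333_at, differed by -0.02 after acute morphine and did not pass (adjusted p = 0.87).

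**Figure D3:**
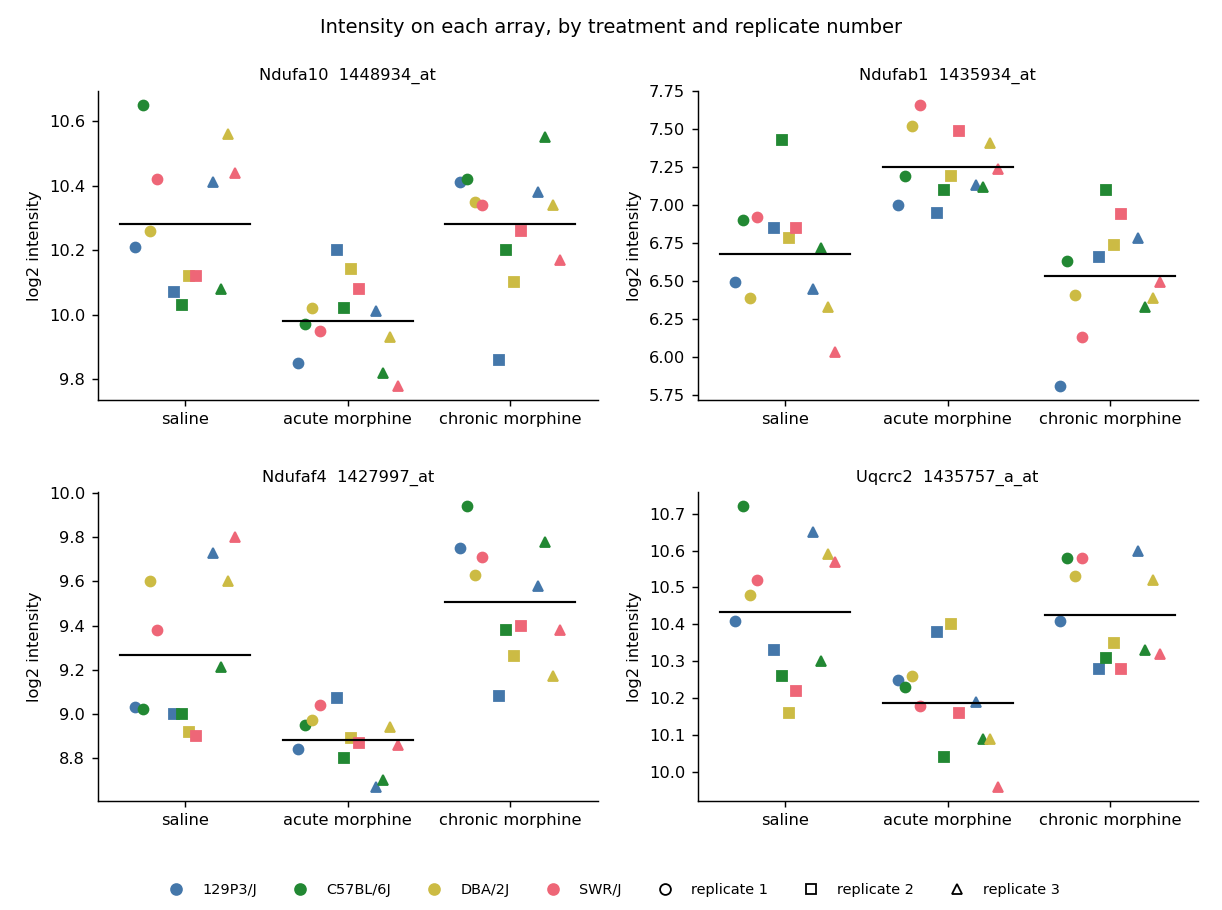
Log2 intensity on each array is plotted by treatment for the 4 members past the acute test, with strains in colour, replicate numbers as marker shapes and a line at the mean of 12 arrays. The saline replicate 2 arrays (squares) sit at the level of the acute arrays for Ndufaf4, Ndufa10 and Uqcrc2, and the acute arrays sit high for Ndufab1.

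Ndufa10, an accessory subunit of the complex I membrane arm, and Uqcrc2, a core protein of complex III, fell likewise after acute morphine. On Ndufa10 1448934_at the saline arrays ran from 10.03 to 10.66 and the acute arrays from 9.78 to 10.20, a difference of -0.30 (SE 0.08, adjusted p = 0.025, 0.18 with the random block). On Uqcrc2 1435757_a_at they ran from 10.16 to 10.72 and from 9.96 to 10.40, a difference of -0.25 (SE 0.07, adjusted p = 0.031, 0.20 with the random block). For both, the groups overlapped and saline replicate 2 was again the lowest saline array in 4 of 4 strains. The other Uqcrc2 probe set, 1428631_a_at, differed by -0.25 (SE 0.09) and did not pass (adjusted p = 0.094), and the other Ndufa10 probe set, 1418068_at, by 0.03 (SE 0.06). Leaving out 1 array at a time gave 0 to 5 members lower, with 0 when 129P3/J saline replicate 3, DBA/2J saline replicate 3, SWR/J saline replicate 3, C57BL/6J acute replicate 3 or DBA/2J acute replicate 3 was left out. It gave 1 without 129P3/J acute replicate 3, C57BL/6J acute replicate 2, SWR/J acute replicate 3 or saline replicate 1 of DBA/2J or SWR/J, and 5 without DBA/2J saline replicate 2.

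Chronic morphine against saline gave 0 members higher and 0 lower, where 1.36% and 3.37% of all detected probe sets passed (limma at 5%; with the random block 0 and 0, and 0.11% and 0.22% of all). At an unadjusted p below 0.05 there were 31 members (19.02%, against 21.46% of all), 26 of them lower (15.95%, against 12.86% of all). The smallest p belonged to Sdha 1426689_s_at, at -0.12 (SE 0.04, adjusted p = 0.072). With C57BL/6J chronic replicate 2 left out, 9 members were lower and 1 higher, with DBA/2J chronic replicate 2 left out there were 3 and 1, without SWR/J saline replicate 3 there were 1 and 1, and without C57BL/6J saline replicate 3 there was 1 lower. No member differed from saline by more than 1.2-fold in mean, against 5.939% of all. For 147 of 163 the 95% interval of the difference lay within 1.2-fold either way (55.12% of all). These intervals came from the fit without the block and are too narrow if arrays of 1 treatment and number share deviations. Members were also brighter than all detected probe sets (median log2 10.8 against 8.05). Their SE was smaller (median 0.047 against 0.075), so these shares are not like for like.

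The differences after chronic morphine leaned one way in every complex although none passed. The members' median was -0.05 on the log2 scale, with 137 of 163 (84.05%) below 0, against a median of 0.00 and 49.96% over all detected probe sets. By role the medians were -0.04 for the complex I core, -0.06 for its accessory subunits, -0.11 for its assembly factors, -0.05 for complex II, -0.04 for complex III, -0.05 for complex IV and -0.06 for complex V. Bright probe sets leaned with them: of the 2926 detected probe sets with a mean log2 above 10, 72.25% were below 0 with a median of -0.04, and of the 122 members above that level 91.8% were, with a median of -0.06. Under quantile normalization of the arrays the members' median was -0.01 with 100 of 163 below 0. After acute morphine the members' median was -0.01 with 94 of 163 below 0.

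**Figure D4:**
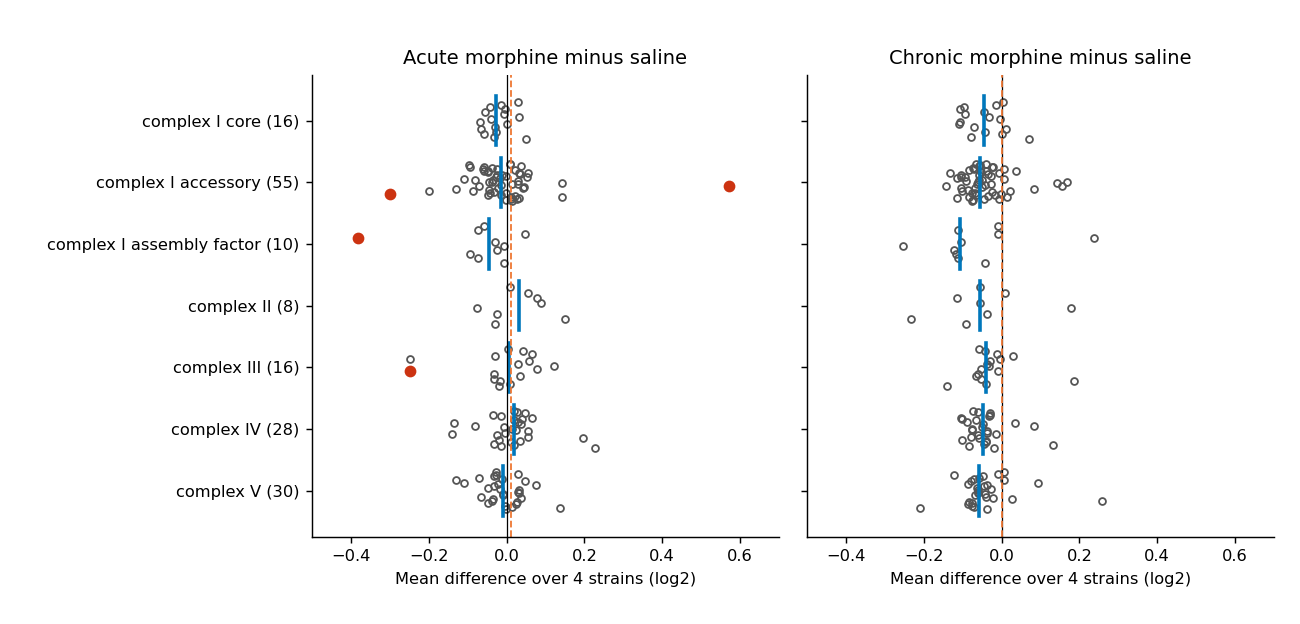
Each point is 1 member, placed by its mean difference from saline over 4 strains (log2) after acute (left) and chronic (right) morphine, with filled red points for the 4 members past 5%, a blue bar at the median of each group and a dashed orange line at the median of all detected probe sets. After chronic morphine all 7 medians lie below 0 with no member past the test.

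On single arrays, the median deviation of the 163 members from their means over the 36 arrays ran from -0.117 to 0.097, and was below 0 on 9 of 12 chronic, 5 of 12 acute and 3 of 12 saline arrays. On 31 of 36 arrays its sign was that of the median of the other probe sets above log2 of 10. Among the chronic arrays, replicate 1 lay between -0.117 and -0.0495 in the 4 strains and replicate 2 between -0.0086 and 0.0601, and these did not overlap. After group means were removed, pairs of members had a mean correlation of 0.228 over the 36 arrays, against 0.0159 among all detected probe sets, and pairs within the complex I core had 0.453. These pairs share arrays and signal level, and the correlation is a description.

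**Figure D5:**
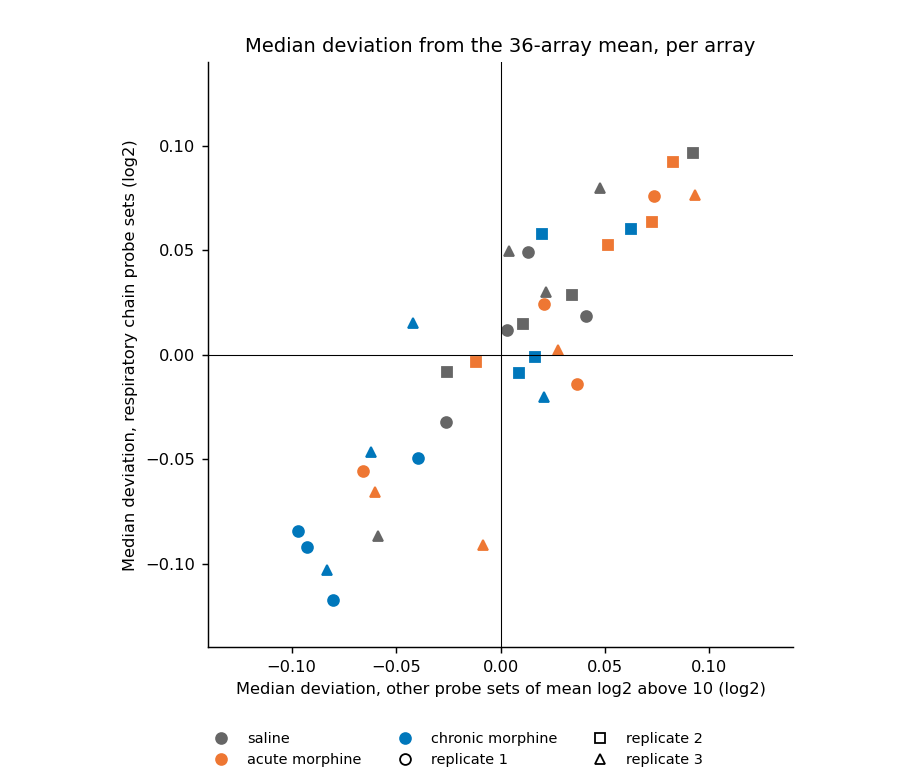
Each point is 1 array, with the median deviation of the other bright probe sets on the x axis and that of the 163 members on the y axis (both log2), coloured by treatment and shaped by replicate number. The points rise together along the diagonal, and the 4 chronic replicate 1 arrays lie at the lower left.

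Between chronic and acute morphine, both 4 h after a dose but of 40 and 20 mg/kg, 11 members were higher and 13 lower after chronic morphine, against 8.87% and 14.6% of all detected probe sets. Quantile normalization turned this split to 15 higher and 7 lower. With the random block 1 was higher and 4 lower (2.47% and 4.68% of all). Without the block, 29 were lower when C57BL/6J chronic replicate 2 was left out and 26 when DBA/2J chronic replicate 2 was, and 5 were higher without C57BL/6J chronic replicate 3 and 7 without DBA/2J chronic replicate 1 or 3 or SWR/J chronic replicate 1. The one that stayed higher was Ndufaf4 1427997_at, at 0.62 (SE 0.11, 1.54-fold, adjusted p = 0.00046, 0.0074 with the block), where every chronic array (9.08 to 9.94) was above every acute array (8.67 to 9.07). Ndufab1 1435934_at was lower by 1.64-fold (-0.71, SE 0.12, adjusted p = 0.00042, 0.0079 with the block). Its chronic arrays ran from 5.81 to 7.10, in part below the detection minimum, so the measured 1.64-fold is no exact size.

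The other 3 that stayed lower were of complexes II and V. Sdhd 1437489_x_at, the second membrane anchor of complex II, ran from 8.15 to 8.76 after chronic and from 8.69 to 9.19 after acute morphine, a difference of -0.38 (SE 0.09), and Sdhd 1428235_at went the same way by -0.14 and passed without the block (adjusted p = 0.030). Sdha 1426689_s_at differed by -0.19 (SE 0.04), with chronic arrays from 10.72 to 11.04 and acute arrays from 10.97 to 11.23. Atp5g2 1456128_at, whose upstream stretch is printed above, ran from 6.05 to 7.04 after chronic and from 6.68 to 7.40 after acute morphine and differed by -0.35 (SE 0.07), and its bright probe set 1415980_at by 0.04, which did not pass. Some chronic values of 1456128_at lay below the detection minimum, so -0.35 is no exact size. For Sdhd and Sdha the chronic and acute ranges overlapped only at their ends. Both Cox7a2 probe sets, of the common form of subunit VIIa, were lower, at -0.17 (SE 0.05) and -0.14 (SE 0.04), and so was Cox7c 1459885_s_at at -0.25, but none of these passed with the block. Of the higher ones, Ndufa10 1448934_at (0.30), Atp5g1 1444874_at (0.30), Sdha 1433293_at (0.25) and both Uqcrc2 probe sets (0.24 each) also lost the call with the block, and the Sdha probe sets 1433293_at and 1426689_s_at had opposite signs. Ndufa4 was lower at -0.16 (SE 0.04) and Ndufa4l2 higher at 0.23 (SE 0.07), again not with the block (0.075 and 0.19). The marker list for pericytes and vessel wall had 0 of 7 genes higher and 1 of 7 lower in this comparison, with summed intensities of 3928 to 4795 on chronic and 4047 to 4853 on acute arrays.

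No member passed the interaction F-test for a response to morphine that differs between strains (limma, 1%): 0 of 163 and 0% of all detected probe sets passed. An unadjusted p below 0.05 was found for 4 members (2.454%, against 5.141% of all). With 3 arrays a group the test passed no probe set at all, so it cannot show that the strains responded alike. The smallest adjusted p were 0.86 for Atp5a1 1420037_at, 0.92 for Ndufb2 1442658_at and 0.96 for Ndufb1 1454771_at. Within single strains, with 3 arrays against 3, the 8 comparisons of acute or chronic morphine with saline gave 0 members higher and 0 lower, beside 0.177% and 0.213% of all tests. Without C57BL/6J chronic replicate 2 there were 2 higher and 8 lower, without C57BL/6J saline replicate 3 there were 1 and 1, without 129P3/J chronic replicate 1 or DBA/2J saline replicate 2 there was 1 higher, and without DBA/2J chronic replicate 2 there was 1 lower.

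Genes that serve the chain from outside it were read from separate lists. Each gene was read on its brightest probe set, so shares of all detected probe sets are only a rough measure beside these counts. Of 32 measured assembly factors of the complexes, 8 differed by strain (13.2% of all detected probe sets did). Dmac2l, an ATP synthase factor, was below the detection minimum on 9 of 9 SWR/J arrays and above it on all others, at least 4.17-fold higher in 129P3/J, 3.5-fold in C57BL/6J and 3.75-fold in DBA/2J against that minimum. Others were Timmdc1, which is needed for complex I assembly and was 0.59 (SE 0.06) above the mean in 129P3/J, Sdhaf1, an iron-sulfur factor of complex II, at -0.49 (SE 0.05) in DBA/2J, and Cox18, which inserts a subunit of complex IV, at -0.35 (SE 0.04) in SWR/J. After chronic morphine 2 of the 32 were lower, Bcs1l, which completes complex III, at -0.30 (SE 0.08, adjusted p = 0.034) and Cox20 at -0.19 (SE 0.06, adjusted p = 0.048). With the random block neither passed (adjusted p = 0.30 and 0.32). Of 12 measured citrate cycle genes 0 differed by strain and 3 passed the morphine F-test (8.71% of all detected probe sets did). After chronic morphine 1 of them was lower (3.37% of all were), Suclg1, a subunit of succinate-CoA ligase. It was at -0.13 (SE 0.04, adjusted p = 0.048, 0.34 with the random block). With the random block, the F-test for treatment passed none of the assembly factors, electron carriers, citrate cycle genes or carriers.

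Among the 11 nuclear regulators, all measured, Ppargc1a, the coactivator PGC-1 alpha, fell after acute morphine by 0.42 on the log2 scale (-0.42, SE 0.12, adjusted p = 0.040, 0.17 with the random block), and its difference after chronic morphine was 0.33 (SE 0.12, adjusted p = 0.10). It was the one gene of these lists that passed the F-test for treatment with the random block (adjusted p = 0.0068). Between chronic and acute morphine Ppargc1a was higher in chronic by 0.75 (SE 0.12, limma adjusted p = 0.00030, 0.0046 with the block). Gabpa, the ETS subunit of GABP, differed between chronic and acute morphine by -0.43 (lower in chronic, SE 0.07, adjusted p = 0.00036, 0.0074 with the block), and Nrf1 differed by strain, from -0.23 in C57BL/6J to 0.18 in 129P3/J (SE 0.06). Strain calls were found for 2 of 10 measured electron carrier genes, Coq7 and Coq9 of ubiquinone synthesis, and for 1 of 8 measured carrier and uncoupling genes, the phosphate carrier Slc25a3.

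Markers of other cells moved in places. For strain, 4 of 5 measured oligodendrocyte genes and 4 of 6 microglial genes passed (13.2% of all detected probe sets did). Oligodendrocyte markers summed to 15560 to 19910 on C57BL/6J arrays and 13630 to 16290 on SWR/J arrays. After chronic morphine the genes lower were 2 of 5 of oligodendrocytes (Cnp and Mag), 2 of 6 of astrocytes (Aqp4 and Gja1), 1 of 6 of medium spiny neurons (Drd2 at -0.27), 1 of 4 of endothelium (Flt1) and 1 of 7 of pericytes and vessel wall (Pdgfrb). None of these passed with the random block, where the smallest adjusted p was 0.052 for Drd2. None of the 6 general neuronal genes passed. The 3 measured markers of cortical excitatory neurons had the largest median of these lists, 0.77 on the log2 scale, without passing (Tbr1 0.65, adjusted p = 0.052, 0.29 with the block), and summed to 710 to 2256 on chronic and 299 to 1518 on saline arrays. After acute morphine 2 of 6 microglial genes (Cx3cr1 and Aif1) and 2 of 4 endothelial genes (Tek and Flt1) were lower, of which Cx3cr1 and Tek also passed with the block. The remaining microglial genes did not go with them: C1qa was at 0.20, C1qb at 0.05, C1qc at 0.08 and Csf1r at 0.00. Aif1 was dim, with a mean of 6.84. The remaining endothelial genes were at -0.02 (Cldn5) and -0.06 (Slco1a4). Their part in the members' differences was not tested. On RNA quality, the log2 difference between 3′ and 5′ control probe sets of Gapdh was 0.72 on C57BL/6J saline replicate 1 and between -0.11 and 0.12 on the other 35 arrays. Without that array 18 members passed for strain and 5 for morphine, as with it, but Uqcrc2 1435757_a_at no longer passed the acute test.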

How the data were processed

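Striatal RNA of 4 strains under 3 treatments was measured on 36 arrays, 3 per group, each an independent pool of 3 mice. The deposited values were linear intensities per probe set. To make them, the authors normalized the arrays and computed model-based expression indices from perfect match and mismatch probes in dChip. Their other normalizations and their PCR were not used here. Sources name no batch.

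Intensities were taken to log2, with a pseudocount of 16 as an alternative. Control probe sets (64 of 45101) were left out, and 27212 probe sets above the minimum on at least 9 arrays were fitted together in R 4.3.3 with limma 3.58.1 and statmod 1.5.0 (12 group means, 24 residual degrees of freedom, 3.89 prior). F-tests for strain, treatment and interaction were called at 1% and contrasts at 5%, with Benjamini-Hochberg adjustment over all fitted probe sets, contrast by contrast. Every adjusted p comes from limma. Depth has no meaning for arrays: the number of arrays limits precision. Arrays of 1 treatment and number deviated together across strains (mean correlation of deviations 0.264, above 0.1 in 43 of 54 pairs), so treatment and number entered as a random block (consensus correlation 0.241) as an alternative.

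Gene symbols came from the platform annotation, and promoter windows from RefSeq. Named probe sets were those of smallest p past an F-test (3 of smallest p for the interaction, where none passed), up to 6 largest rises and 6 largest falls past each contrast, the ends of the level range, the alternative subunit forms, and the other probe sets of these genes. Members and lists were chosen with earlier results of these data known. The code was tested on simulated data. Tables and figures were made in Python 3.11.15.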

Additional observations from a re-analysis of the deposited data

How the results depend on the processing

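The strain values of the 18 named probe sets kept their direction under every alternative in which the probe set was fitted, and no named value reversed. The number of members past the strain F-test fell as low as 16 when 1 array was left out, so not every call at 1% stayed. Of 163 members, 18 passed for strain and 5 for morphine. Acute morphine gave 1 higher and 3 lower, chronic 0 and 0, chronic against acute 11 and 13, the 8 comparisons within strains 0 and 0, and each strain against the mean 31 and 28 in sum.

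Under the random replicate block the counts were 0 for morphine, 0 and 0 for acute, 1 and 4 for chronic against acute, 1 and 1 within strains, and 43 lower for each strain against the mean. With replicate number as a fixed replicate block they were 12 for morphine, 1 and 2 for chronic, 22 lower for chronic against acute, and 1 and 2 within strains. The numbers are not stated to pair the arrays. Of the treatment values of 16 named probe sets, 11 lost their call under the random block and 0 under the fixed one.

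Array weights gave 31 for strain, 22 for morphine, 4 and 8 for acute, 2 and 7 for chronic, 17 and 41 for chronic against acute, and 11 and 2 within strains. Quantile normalization gave 8 for morphine, 1 higher for chronic and 7 lower for chronic against acute. Without a filter there were 3 for morphine, 1 lower for acute and 7 higher for chronic against acute. Without moderation there were 2 lower for chronic, 21 lower for chronic against acute and 1 lower within strains, and median centring gave 1 lower within strains. With 1 probe set per gene, which tests fewer members, there were 10 for strain, 2 for morphine, 0 higher for acute, 4 and 8 for chronic against acute, 1 lower within strains, and 18 and 16 for each strain against the mean. The cause of the other shifts was not tested. Shares of all detected probe sets are given above for the first fit and the random block only. For the other settings, and with 1 array left out here or above, the counts cannot show whether members moved apart from other probe sets. A pseudocount and a filter on the mean moved no count by over 1.5 times.

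Leaving out 1 array at a time gave 16 to 20 for strain, 3 to 11 for morphine, 0 to 0 for the interaction, 1 to 1 higher and 0 to 5 lower for acute, 0 to 1 higher and 0 to 9 lower for chronic, 5 to 12 higher and 9 to 29 lower for chronic against acute, 0 to 2 higher and 0 to 8 lower within strains, and 25 to 33 higher and 24 to 31 lower for each strain. Dim probe sets limit the values of Ndufab1 1435934_at, Atp5g2 1456128_at, Sdha 1433293_at and Atp5g1 1444874_at, which were near the minimum.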
